A study of Mus musculus with 4 samples.

Results

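mRNAs of the mitochondrial ribosomal proteins were followed in the cytoplasm of mouse Neuro2A neuroblastoma cells in which 4.5SH, a short noncoding transcript found in rodents, had been depleted. Members were all probe sets annotated to a single gene symbol that begins with Mrpl or Mrps and a digit, which gave 156 of 45037 non-control probe sets and 76 of 18193 genes, 47 of the large and 29 of the small subunit by name. Another 4 probe sets that list such a symbol beside a different gene were left out. The 4 Affymetrix arrays held 2 biological replicates labelled as depletion of endogenous 4.5SH (knockdown) and 2 labelled as control. The antisense oligonucleotide was used at 30 nM, and 30 nM is recorded for the control arrays too. The sources used here do not name the control's oligonucleotide, and 4.5SH itself was not measured. A response to its loss and another response to the oligonucleotide or its transfection therefore cannot be told apart. All groups are a single cell line and its cytoplasmic fraction, and the labels do not say whether replicates were transfected separately. The p-values therefore cover only the spread between these arrays, which may be technical.

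The mitochondrial ribosome makes the few proteins that mitochondrial DNA encodes, all of them parts of the respiratory chain or the ATP synthase. Its small subunit binds and decodes the messenger RNA, and its large subunit joins the amino acids. The ribosomal RNAs are made inside the mitochondrion, whereas every protein of the particle is encoded in the nucleus, translated in the cytosol and imported, so the mRNAs measured here are the cytosolic supply. Part of the proteins have relatives in the bacterial ribosome, and the others are specific to mitochondria. Transcription factors long tied to nuclear genes of mitochondria are NRF1, the ETS family factor GABP and YY1.

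The start regions below belong, in each subunit, to the members with the most negative and the most positive change among those named by rule, and are shown so that start regions of strongly lowered members can be read beside those of members that were not lowered. They are the 250 bases before the gene start, 5′ to 3′ on the gene's strand, from RefSeq annotation on build GRCm38.p6. Capitals mark a match, on either strand, to the NRF1 letters (GCGCA and GCGC parted by any 1 base) or the ETS letters CCGGAAGT. The YY1 letters AAGATGGC were searched too. None of these motifs contains another. Mrpl3 lies at chr9:105053018-105053267 on the plus strand, Mrpl39 at chr16:84735245-84735494 on the minus strand, Mrps18c at chr5:100798509-100798758 on the plus strand and Mrps18a at chr17:46110754-46111003 on the plus strand.
Mrpl3: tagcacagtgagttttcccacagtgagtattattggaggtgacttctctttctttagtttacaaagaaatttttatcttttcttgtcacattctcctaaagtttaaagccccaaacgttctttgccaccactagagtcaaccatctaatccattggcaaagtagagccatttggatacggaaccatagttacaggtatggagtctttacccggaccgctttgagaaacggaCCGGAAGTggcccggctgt
Mrpl39: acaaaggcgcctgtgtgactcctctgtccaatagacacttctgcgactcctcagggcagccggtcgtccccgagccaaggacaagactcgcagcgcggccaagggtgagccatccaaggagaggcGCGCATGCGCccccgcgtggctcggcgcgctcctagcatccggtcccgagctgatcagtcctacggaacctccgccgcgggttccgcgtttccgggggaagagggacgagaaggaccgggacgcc
Mrps18c: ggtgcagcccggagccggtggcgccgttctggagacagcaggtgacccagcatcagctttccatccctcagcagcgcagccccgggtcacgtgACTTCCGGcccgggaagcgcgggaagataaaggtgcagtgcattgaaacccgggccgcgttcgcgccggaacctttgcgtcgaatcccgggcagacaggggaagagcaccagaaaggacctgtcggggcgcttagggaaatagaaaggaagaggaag
Mrps18a: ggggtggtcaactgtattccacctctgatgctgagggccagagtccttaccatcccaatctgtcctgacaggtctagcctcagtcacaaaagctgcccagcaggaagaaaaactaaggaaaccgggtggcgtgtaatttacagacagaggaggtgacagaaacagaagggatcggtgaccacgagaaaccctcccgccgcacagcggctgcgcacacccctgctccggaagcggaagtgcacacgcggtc
The ETS match of Mrpl3 begins 19 bases before the gene start and that of Mrps18c, on the opposite strand, 157 bases before it. Mrpl39 holds a palindromic NRF1 match that begins 125 bases before the start. Mrps18a has no capitals because its only match, to the YY1 letters, lies past the start.

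The arrays as a whole differed between the groups. On knockdown arrays the trimmed mean signal was 128 and 132, on control arrays 149 and 143. Over the 11804 genes tested the median log2 change was -0.16, and it moved to -0.04 with quantile scaling, -0.03 after centring on the tested probe sets, -0.14 after centring on all probe sets and -0.31 with spike-in scaling. For Gapdh, the signal of the 3′ control probe set divided by that of the 5′ one was 0.833 and 0.787 on knockdown arrays and 0.884 and 0.861 on control arrays. For Actb the same ratio was well above that of Gapdh, at 2.47 and 2.49 on knockdown arrays and 2.6 and 2.78 on control arrays. The part of these shifts in the results was not tested. Of 12 markers of sympathetic neuroblasts 8 were above the filter on dim probe sets, among them Phox2a (1069 in the knockdown and 1258 in the control) and Hand2 (1446 and 1581), and 2 had no probe set of a single symbol. Isl1, also above the filter, was higher in the knockdown (118.8 against 92.6). Dbh (18.8 and 23.5) and Mycn (39.15 and 36.9) are counted among the 8 but were dim. Th (13.2 and 19.1) and Gata3 (21.6 and 10.3) were below the filter. Of 4 leukocyte markers Cd68 was above the filter, at 339.8 in the knockdown and 669.8 in the control. Ptprc read 0.5 and 4.2, and the list, mostly Cd68, summed to 351 and 695. The 5 fibroblast markers summed to 76.8 and 83.7. The part of these markers in the results was not tested. All arrays are from a single cell line, and bulk signals alone cannot tell fewer cells of a type from less RNA per cell.

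Transcripts for the mitochondrial ribosome were lower in the knockdown for a little over 50% of the members, mostly by small amounts, and Mrpl3, Mrps18c, Mrps9 and Mrps10 fell to between 45.1% and 55.6% of the control signal. At gene level, with each gene taken at its brightest tested probe set, 40 of the 76 members fell, 1 rose and 35 did not pass (limma, adjusted p threshold 0.05). The shares among all tested genes were 35.2% lower and 9.79% higher, against 52.6% and 1.32% of the members. A value after ± is the standard error that limma estimated, and fold changes are on the log2(signal + 16) scale. All 76 genes passed the filter on dim probe sets through at least 1 of their probe sets, while 20 of the 156 probe sets did not. The family's median was -0.22, or 0.06 below the median of all genes. With quantile scaling 25 members fell and 11 rose, against 22.6% lower and 17.7% higher over all genes, and the family's median of -0.04 lay at that of all genes. After centring on the tested probe sets 28 fell and 8 rose, against 24.2% lower and 17% higher. Member probe sets are bright, with a median percentile of 85.7 among tested genes. In a fit on the brightest 25% of probe sets, 55.3% of the members were lower, against 47.9% of all genes there, and 2 were higher, against 12.6%. Against bright genes the family's share lower thus lay nearer the background than against all genes.

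**Figure D1:**
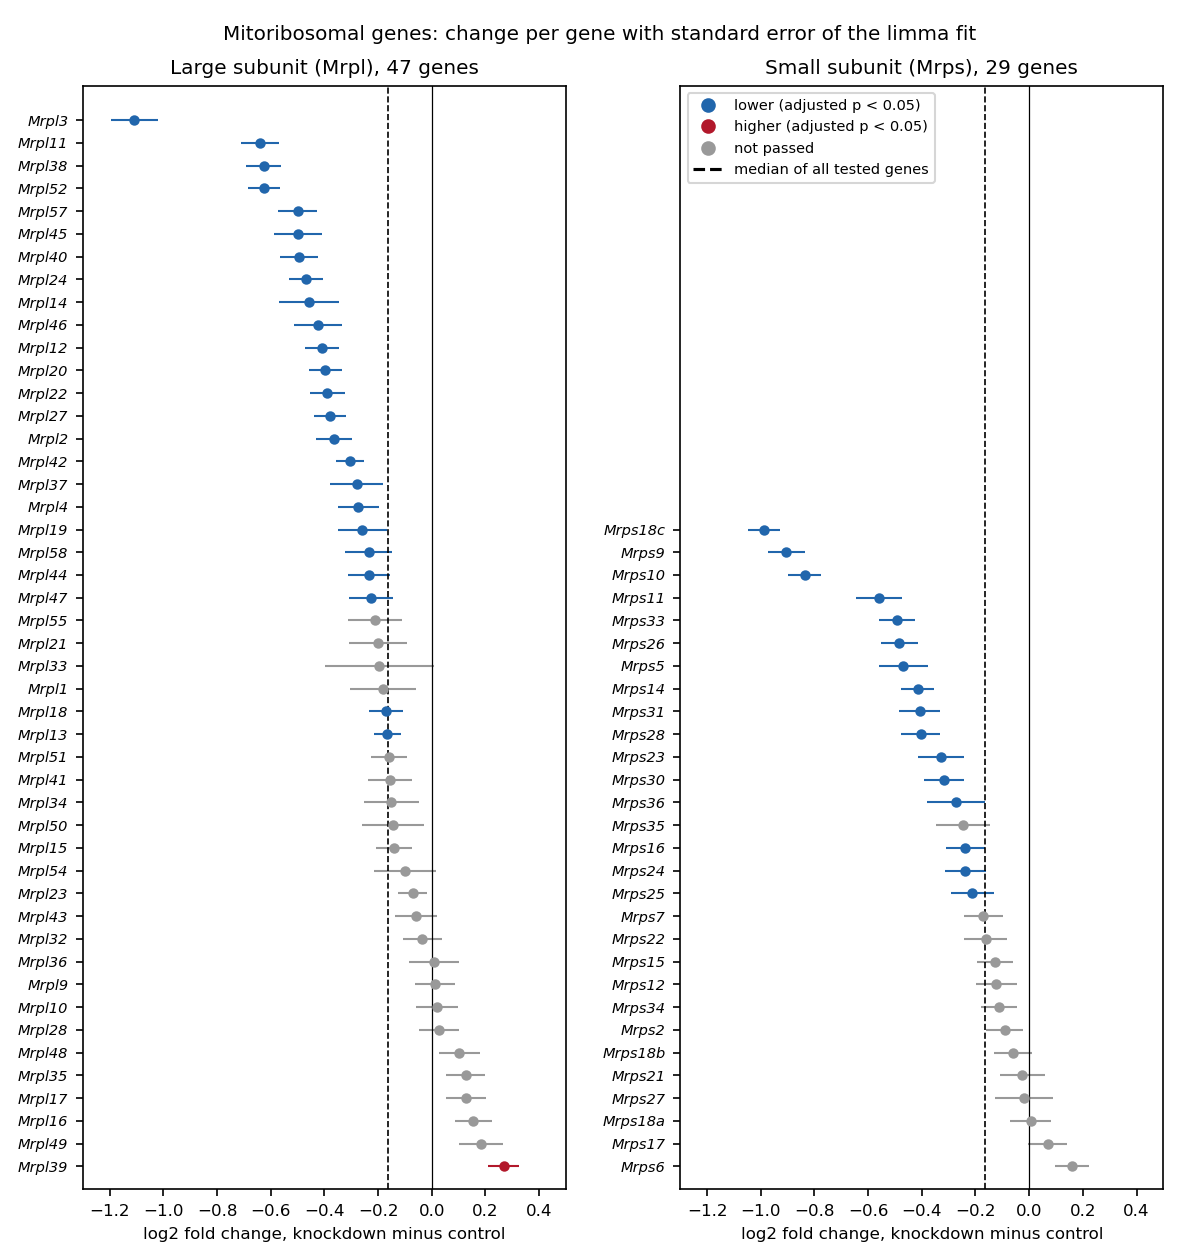
Log2 fold change (knockdown minus control, horizontal axis) of each of the 47 large subunit and 29 small subunit genes at its brightest tested probe set; points are limma estimates, bars their standard errors, and the dashed line the median of all tested genes, -0.16. Mrpl3, Mrps18c, Mrps9 and Mrps10 lie at -0.84 or below, and Mrpl39 is the single gene called higher.

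At each gene's brightest probe set, the largest fall in the family was that of Mrpl3, a core protein of the large subunit whose bacterial relative reaches close to the site of peptide bond formation. Its brightest probe set read 294.8 and 273 in the knockdown, against control values of 646.6 and 613.8. The groups did not overlap, and the knockdown signal was 45.1% of that of the control. The log2 fold change was -1.11 ± 0.09 (adjusted p = 5.42e-08, limma). A second probe set for Mrpl3 read 184.2 and 177.3 in the knockdown against 321 and 354.8 in the control and also fell (-0.85 ± 0.11). A dim further one was at -0.36 and did not pass. As the mean of its probe sets Mrpl3 stood at -0.77, behind Mrps9 (-0.90) and Mrps18c (-0.99).

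The other 3 members that fell this far belong to the small subunit. Mrps18c, related to a bacterial platform protein, read 1089.2 and 1085.9 in the knockdown, against control values of 2154.2 and 2189.8. The knockdown arrays stood at 50.1% of the control signal, with replicates of each group close together, and the fall was 0.99 ± 0.06 on the log2 scale (adjusted p = 2.31e-09, limma). It has a single probe set. Mrps9, a protein of the head of the small subunit, read 646.1 and 644.2 against 1231.4 and 1213 (-0.91 ± 0.07). Of its 4 tested probe sets 3 fell, with log2 changes of -0.91, -1.13 and -1.44, and the dim remaining one did not pass. Mrps10, also of the head, read 1030.3 and 1076.7 against 1948.4 and 1840.8 (-0.84 ± 0.06). Its second probe set, with signals of 26.4 to 29.6, stood at -0.02 and did not pass. These 4 genes kept their call and direction under each alternative that was run, and with quantile scaling they stood at -0.92 (Mrpl3), -0.82 (Mrps18c), -0.73 (Mrps9) and -0.67 (Mrps10).

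**Figure D2:**
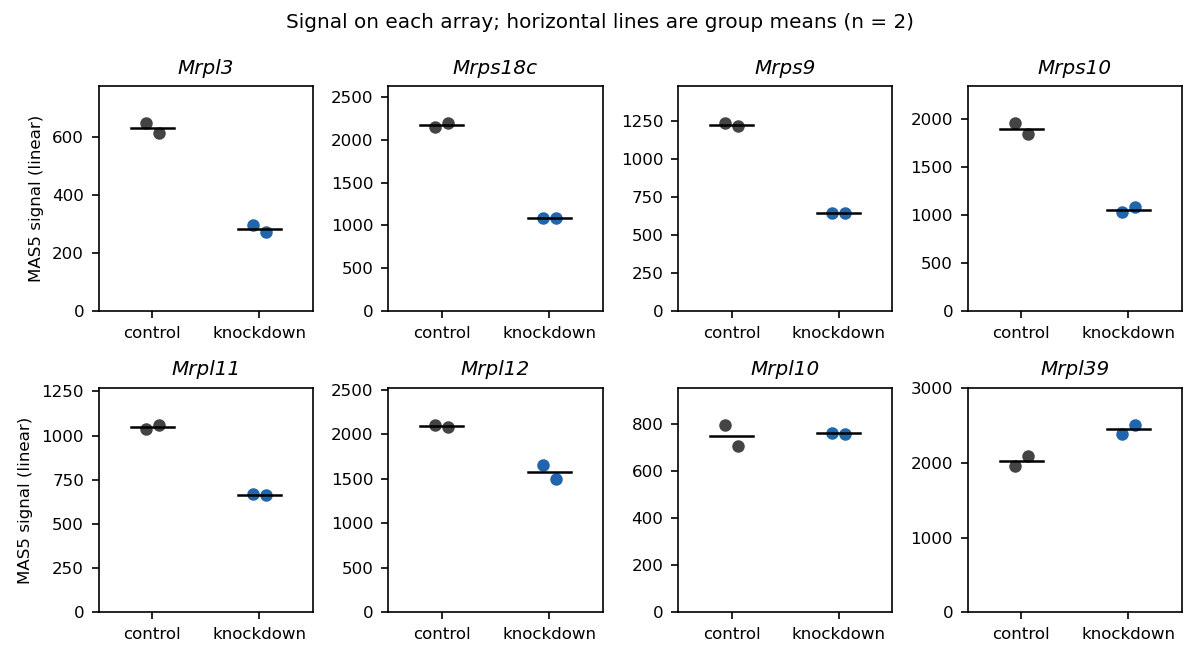
MAS5 signal on a linear scale (vertical axis, from 0) for 8 members on each of the 4 arrays; points are arrays and lines the group means (n = 2). The knockdown arrays lie apart below the control arrays for Mrpl3, Mrps18c, Mrps9, Mrps10, Mrpl11 and Mrpl12, within their range for Mrpl10 and above them for Mrpl39.

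In the large subunit, 3 named members belong to the stalk, which recruits translation factors, and its base. Mrpl11, at the base of the stalk, read 667.2 and 665.1 in the knockdown, against control values of 1035.5 and 1059.8, a fall of 0.64 ± 0.07. Of its 3 tested probe sets 2 fell and the dimmest did not pass (-0.21). Mrpl12, the factor-binding protein of the stalk, which is also reported to bind the mitochondrial RNA polymerase, read 1651.6 and 1492.6 against 2102.8 and 2076.1 (-0.41 ± 0.06). Mrpl10, which carries Mrpl12 on the ribosome, read 761.6 and 754.8 against 794 and 704, with overlapping groups (0.02 ± 0.08, adjusted p = 0.859, limma). With quantile scaling Mrpl10 passed as higher (0.21), and with spike-in scaling it was at -0.12 and did not pass, while Mrpl11 and Mrpl12 stayed lower in both. The difference between the stalk genes was not itself tested.

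The mitochondria-specific proteins of the large subunit held the next falls. Mrpl38, part of the central protuberance, read 1066.9 and 992.6 in the knockdown, against control values of 1624.5 and 1570.1 (-0.63 ± 0.07). This rests on a probe set ending in _s_at, a name given where probes can match several transcripts. The other 2 tested probe sets for Mrpl38, with signals of 19.1 to 43.1, were at -0.09 and 0.10 and did not pass. Mrpl52 read 1244.1 and 1219.3 against 1866.8 and 1949.1 (-0.62 ± 0.06), and all 3 of its probe sets fell, by 0.62 to 0.76. Mrpl45, which faces the inner membrane near the exit tunnel, fell by 0.50 ± 0.09 and Mrpl57 by 0.50 ± 0.07. Neither gene's groups overlapped, and both tested probe sets for Mrpl57 were lower.

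Mrpl39, a mitochondria-specific protein related to threonyl-tRNA synthetase, was the member called higher. It read 2385.9 and 2503.4 in the knockdown, against control values of 1960.3 and 2095.6, with no overlap, and rose by 0.27 ± 0.06 (adjusted p = 0.00104, limma). Its second probe set was at 0.13 and did not pass. With spike-in scaling Mrpl39 stood at 0.13 and without an intensity trend at 0.27, and passed in neither. With quantile scaling it rose by 0.43, and the other members then called higher were Mrpl49 (0.37), Mrps6 (0.33), Mrpl16 (0.33), Mrpl17 (0.31), Mrpl35 (0.30), Mrpl48 (0.29), Mrps17 (0.25), Mrpl28 (0.21), Mrpl10 and Mrps18a. Without knockdown replicate 1, members called higher numbered 3 on the deposited scale.

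Among the other named members of the small subunit, Mrps11, a platform protein, fell by 0.56 ± 0.09, with signals of 496.5 and 443.4 in the knockdown, against control values of 668.3 and 731.1. The mitochondria-specific Mrps33 (-0.49 ± 0.07) and Mrps26 (-0.48 ± 0.07) fell as well, both without overlap. Mrps12, whose bacterial relative lies at the decoding site, was at -0.12 ± 0.08 (adjusted p = 0.212, limma) and Mrps7, of the head, at -0.17 ± 0.07 (adjusted p = 0.0719, limma), and neither passed. Mrps12 and Mrps7 passed as lower with spike-in scaling (-0.26 and -0.31), and Mrps7 also without control replicate 2 (-0.23). Mrps6, whose bacterial relative pairs with that of Mrps18c, was at 0.16 ± 0.06 by its brightest probe set, with 1424.2 and 1545.3 against 1350.1 and 1303.7 and no overlap, and missed the threshold (adjusted p = 0.0538, limma). In the fit over probe sets its other probe set was called higher (0.30 ± 0.07). It was chosen for mention after its values were seen.

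Some members are named for one subunit and placed elsewhere. In ribosome structures Mrps30 and Mrps18a belong to the large subunit, and Mrps36 is a part of the oxoglutarate dehydrogenase complex rather than of the ribosome. Mrps30 read 684.7 and 704.4 in the knockdown, against control values of 897.3 and 841.4 and fell by 0.32 ± 0.07, though it missed the threshold with quantile scaling (-0.14). Mrps18a read 757.1 and 752.3 against 783.8 and 721.1, with overlap and a change of 0.01 ± 0.08. The paralogs of a bacterial platform protein thus had separate values, with Mrps18b at -0.06 ± 0.07 and Mrps18c at -0.99. Mrps36 read 830.8 and 1111.7 against 1058.3 and 1282.2. Its groups overlapped, and its call as lower (-0.27 ± 0.11, adjusted p = 0.0475, limma) was lost in 11 alternatives, among them without knockdown replicate 1 (-0.07), without control replicate 2 (-0.14) and with quantile scaling (-0.10).

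In counts of calls and in medians the large and the small subunit lay close together. By the mean over genes, which single large falls can move, the small subunit was lowered somewhat more. Of 47 large subunit genes 24 fell, 1 rose and 22 did not pass, a share of 51.1% lower. Of 29 small subunit genes 16 fell, none rose (limma, while at an unadjusted p under 0.05 there was 1) and 13 did not pass, a share of 55.2% lower. Among all tested genes 35.2% were lower and 9.79% higher. In the fit on the brightest 25% of probe sets 47.9% of all genes were lower and 12.6% higher. The medians were -0.20 and -0.24. Their difference, large minus small, was 0.04, under the spread between replicates of 0.07 (SD of the same difference between arrays of a group), and it turned to -0.03 without knockdown replicate 2, to -0.03 without control replicate 2 and to -0.02 when the probe sets of a gene were averaged. Per array the mean log2 signal of the large subunit was 9.57 and 9.58 in the knockdown against 9.82 and 9.79, and for the small subunit 9.49 and 9.51 against 9.80 and 9.78. The large subunit thus lay above the small by 0.080 and 0.071 on the knockdown arrays and by 0.017 and 0.0059 on the control arrays, with no overlap. The change in this gap was 0.064, beyond its replicate SD of 0.0069, and it was 0.061 with quantile scaling and 0.078 with subunits taken by structure. With the probe sets of a gene averaged it was 0.028, about the size of its replicate SD of 0.027. The mean was added after the data were seen. It includes the large falls of Mrps18c (-0.99), Mrps9 (-0.91) and Mrps10 (-0.84) among 29 small subunit genes, and of Mrpl3 (-1.11) among 47 large. The gap without these genes was not computed, so it cannot be read as a shift of the whole subunit. Both groups of genes were lower on both knockdown arrays, as was the mean of all tested genes (7.64 and 7.68 against 7.86 and 7.81). Counting Mrps30 and Mrps18a as large and leaving out Mrps36 gave 25 of 49 and 14 of 26 genes lower. No p was computed for the difference, because members are not replicates and an exact permutation test on 2 against 2 arrays cannot go below 0.333.

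The members were also split by the origin of the protein, with no test of the difference. The share lower was 35.2% among all tested genes and 47.9% in the fit on the brightest 25% of probe sets. Large subunit proteins with bacterial relatives fell in 14 of 29 cases (median -0.20) and mitochondria-specific ones in 10 of 18 (median -0.23). In the small subunit the counts were 9 of 18 (median -0.20) and 7 of 11 (median -0.27). All 11 mitochondria-specific genes with small subunit names, Mrps30 and Mrps36 among them, lay below 0, from -0.49 to -0.02, as did 67.5% of all tested genes. The largest falls at the brightest probe set, those of Mrpl3, Mrps18c, Mrps9 and Mrps10, were all in proteins with bacterial relatives. That class holds most members, 29 of the 47 large and 18 of the 29 small subunit genes.

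In size, most falls were small. Both knockdown signals lay below both control signals in 53 of 76 members (69.7%), against 51.6% of all tested genes, and above both in 8, against 19.7%. The share below was 63.8% in the large subunit (30 of 47) and 79.3% in the small (23 of 29), and this difference was not tested. A fall of at least 1.5-fold that passed was found in 7 members, Mrpl3, Mrps18c, Mrps9, Mrps10, Mrpl11, Mrpl38 and Mrpl52, which is 9.21% of the family against 13.2% of all tested genes. Under all 4 other scalings and without each array in turn 25 members, 15 large and 10 small, stayed lower, which is 32.9% of the family against 20.1% of all tested genes, and these 7 genes are among them. The summed signal of all 156 member probe sets was 0.808% and 0.805% of the signal of all probe sets in the knockdown, against 0.867% and 0.882% in the control.

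In the fit over single probe sets, 48 of 136 tested member probe sets were lower and 6 higher, or 35.3% lower against 25.8% of all probe sets, among which 9.73% were higher. The large subunit had 31 of 88 lower (35.2%) and the small subunit 17 of 48 (35.4%). Without knockdown replicate 2 a single member probe set remained higher. Of the 36 members with more than 1 tested probe set, 5 had all of them lower: Mrpl27, Mrpl44, Mrpl52, Mrpl57 and Mrps24. For Mrpl44, which has the fold of a double-stranded RNA nuclease, the 4 probe sets ranged from -0.58 to -0.23, and the brightest gave the smallest fall. Including these, 17 genes had at least 1 probe set lower and none higher, 5 had at least 1 higher and none lower (Mrpl9, Mrpl15, Mrpl39, Mrpl49 and Mrps6), and 13 had none called. Mrpl15 is counted here through a dim probe set whose control signals lay under the filter's 16.4, so that it was tested only because of its knockdown signals.

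A single member was called in both directions. Mrpl13 fell by 0.17 ± 0.05 at its brightest probe set, which read 2689.2 and 2635.1 in the knockdown, against control values of 2986 and 2990.3. A probe set for Mrpl13 ending in _x_at, a mark of possible cross-hybridization, read 489.7 and 505.7 against 419.1 and 405 and rose (0.26 ± 0.09). The remaining one was at 0.09, and the mean of all tested probe sets for Mrpl13 was 0.06. The fall was also lost with quantile scaling (-0.03), after centring on the tested probe sets (-0.03), without the intensity trend (-0.17) and without knockdown replicate 2 (-0.15). For Mrpl15 this dim probe set read 22.9 and 30 in the knockdown, against control values of 6.8 and 11.8, and its call supports nothing about the gene, whose brightest of 6 tested probe sets was at -0.14 and did not pass.

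**Figure D3:**
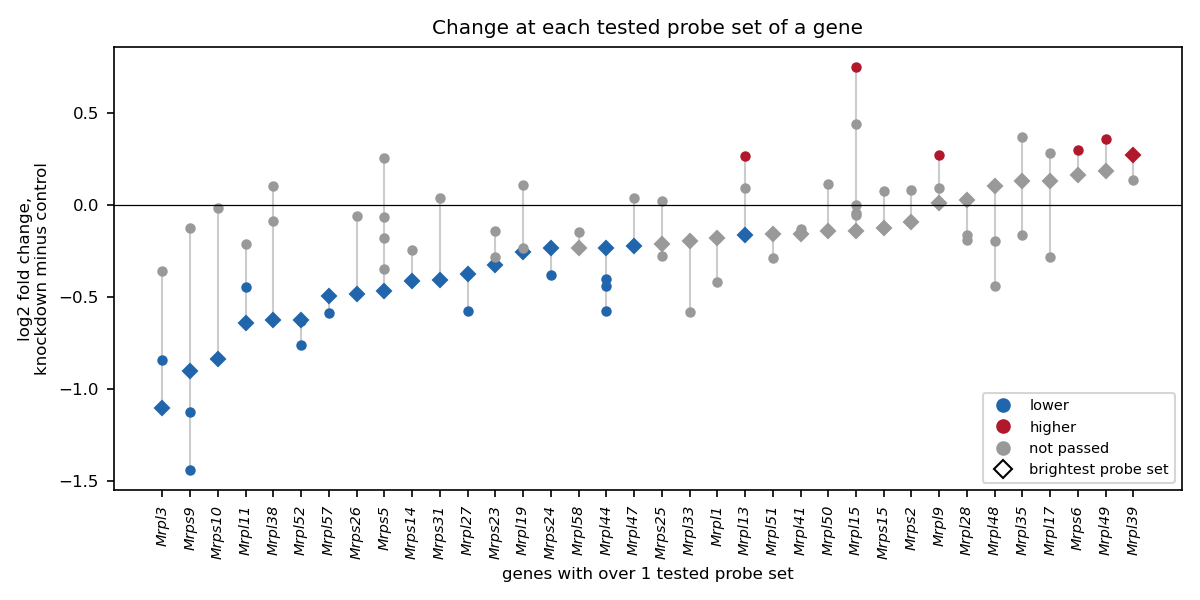
Log2 fold change (vertical axis) at each tested probe set of the 36 members that have more than 1, ordered by the change at the brightest (diamond); colours give the call in the fit over all probe sets. Probe sets of Mrpl52, Mrpl57, Mrpl44, Mrpl27 and Mrps24 are all lower, and Mrpl13 has calls on both sides of 0.

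The start regions were compared with the changes. RefSeq start regions (250 bases before to 50 after the start) were found for 67 of the 76 members. The NRF1 letters occurred in 12 of these 67 (17.9%, against 5.19% of all 27025 genes in the table), the ETS letters in 12 (17.9% against 4.31%) and the YY1 letters in 12 (17.9% against 3.19%). Members with any of the 3 motifs fell in 16 of 33 cases (48.5%), with a median of -0.17, and members with none in 19 of 34 (55.9%), with a median of -0.23. The share lower was 35.2% among all tested genes and 47.9% in the fit on the brightest 25% of probe sets. Differences by motif were not tested. Of the 12 with the NRF1 letters 7 fell (median -0.32), among them Mrps9, Mrpl12, Mrpl45 and Mrpl57, but the same letters stand before Mrpl39, which rose. Of the 12 with the ETS letters 6 fell (median -0.18), such as Mrpl3 and Mrps18c printed above, and of the 12 with the YY1 letters 4 fell (median -0.08). A match is a description of letters and not a binding site.

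Part of the members start near a gene on the opposite strand, and the share of all genes that do so was not computed. A gene that starts within 1000 bases and runs the other way was found for 26 of the 67, and in 23 of these pairs the neighbour was tested. Among the 11 pairs whose member fell, the neighbour fell in 6, rose in 1 and did not pass in 4. Among the 12 pairs whose member did not pass, the neighbour fell in 5, rose in 2 and did not pass in 5. Of all tested genes 35.2% fell, and the difference between these counts was not tested. Mrps11 and Mrpl46, a member of each subunit, start 42 bases apart and both fell (-0.56 and -0.42); they count from both sides here. Helq, a DNA repair helicase that starts 159 bases from Mrps18c, fell by 0.95 ± 0.08, close to the 0.99 of Mrps18c. On the other hand, Tcp1, a subunit of a cytosolic chaperonin 238 bases from Mrpl18, rose by 0.38 ± 0.06 while Mrpl18 fell by 0.17. Mrpl32 was at -0.04 and did not pass while its neighbour Psma2, a proteasome subunit, fell by 0.68. These neighbours were chosen for mention after their values were seen.

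Ribosomal proteins that carry other names were lower too, in a short list set against 35.2% lower among all tested genes. Of 5 such genes in the list 4 were tested, and all 4 fell (limma; none was higher at an unadjusted p under 0.05 either), with a median of -0.50. Chchd1 read 1848.2 and 1773.8 in the knockdown, against control values of 2636.2 and 2643.1 (-0.54 ± 0.05). Dap3, a GTP-binding protein of the small subunit also known from cell death, read 1505.7 and 1511.4 against 2202.1 and 1991.5 (-0.47 ± 0.06). In both genes the knockdown arrays lay apart below the control arrays.

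Of 24 genes for assembly of the mitochondrial ribosome and modification of its RNA 12 fell, 1 rose and 11 did not pass (median -0.31). For this and the next lists, the shares among all tested genes were 35.2% lower and 9.79% higher. The helicase Dhx30 (-0.73 ± 0.08) and the GTPase Mtg1 (-0.74 ± 0.08) fell, and Mettl15, a methyltransferase of the small subunit RNA named after its value was seen, rose by 0.85 ± 0.12. Of 12 tested translation factors 5 fell and none rose (limma, nor at an unadjusted p under 0.05), with the median of -0.17 at that of all genes. Those with the smallest p were the release factor Mtrf1l (-0.49 ± 0.08) and the elongation factor Tsfm (-0.53 ± 0.09). Of 18 mitochondrial aminoacyl-tRNA synthetases and related genes 11 fell and 1 rose (median -0.48). The smallest p were those of Rars2 (-0.90 ± 0.09) and Lars2 (-0.86 ± 0.10), which charge arginine and leucine tRNAs.

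Genes that make and handle mitochondrial RNA fell in 8 of 23 cases and rose in 2 (median -0.06). These shares, 34.8% lower and 8.7% higher, lay near the 35.2% and 9.79% of all tested genes. Lrpprc, which keeps mitochondrial mRNAs stable, fell by 1.15 ± 0.09, from 548.7 and 511.6 in the control to 219.7 and 239.4 in the knockdown, and Fastkd3 fell by 0.81 ± 0.08. Of 10 tested regulators of mitochondrial genes 3 fell and 2 rose (median -0.01). The coactivator Pprc1 fell by 0.72 ± 0.08 and Yy1 rose by 0.39 ± 0.07, though Yy1 stood at 0.14 and did not pass as the mean of its probe sets. Gabpa, the DNA-binding chain of GABP, rose by 0.48 ± 0.10, Gabpb2, a partner chain, fell by 0.58 ± 0.12, and the other partner Gabpb1 was at -0.08 ± 0.10 and did not pass. Nrf1 was at -0.20 ± 0.14 and did not pass either. These 4 genes were named after their values were seen. A single probe set was annotated to a mitochondrially encoded mRNA, that of ND5, a complex I subunit made by the mitochondrial ribosome. In the fit over probe sets ND5, likewise named after its value was seen, read 14760.8 and 15041 in the knockdown, against control values of 8334.2 and 9309.4 and rose by 0.76 ± 0.05 (adjusted p = 1.68e-07, limma).

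**Figure D4:**
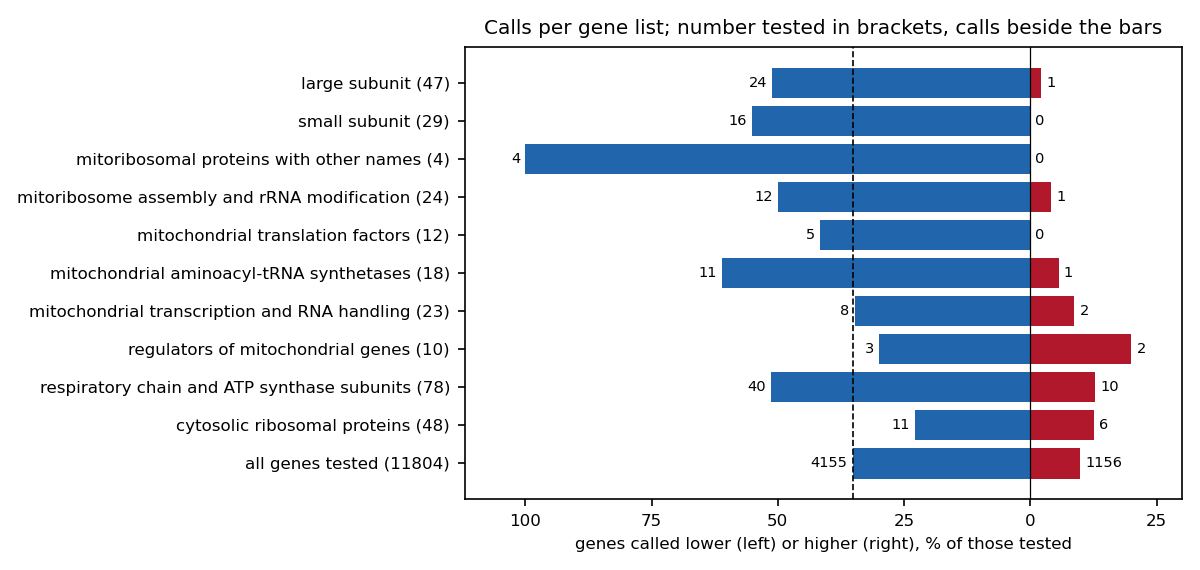
Share of the tested genes of each list called lower (left of 0) or higher (right of 0) in percent, with the number tested in brackets and the number called beside each bar; the dashed line is the 35.2% of all tested genes called lower. The large subunit has 24 of 47 and the small subunit 16 of 29 genes lower, next to 11 of 48 cytosolic ribosomal proteins and 40 of 78 respiratory chain and ATP synthase subunits.

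For the cytosolic ribosome, 11 of 48 tested protein genes fell (22.9%) and 6 rose (12.5%), against 35.2% and 9.79% of all tested genes. The median was -0.04 and the middle range (quartiles) -0.12 to 0.03, compared with -0.41 to -0.09 in the mitochondrial family. Over all tested genes the quartiles were -0.41 and 0.08, so the family's lower quartile lay at that of all genes. Most cytosolic probe sets were brighter than that of Mrpl13, the brightest member (2662 in the knockdown and 2988 in the control). Rps3, for example, read 8397 and 9722. The part of signal level in the narrower range was not tested. Rps27 (-0.89 ± 0.13) and its paralog Rps27l (-0.36 ± 0.05) had the smallest p. The probe set of Rps27 was dim for this list, at 170.6 and 159.2 in the knockdown against 270 and 378.2 in the control. Of 78 subunits of the respiratory chain and ATP synthase 40 fell (51.3%) and 10 rose (12.8%), with a median of -0.16, as in all genes. The share lower was near the 52.6% of the mitoribosomal family, of which 1.32% rose. Ndufb8 (-0.85 ± 0.05) and Ndufa5 (-0.57 ± 0.05), both of complex I, had the smallest p. The differences between these lists were not tested, and lists of 48 to 78 genes on the same 4 arrays are not independent samples.

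**Figure D5:**
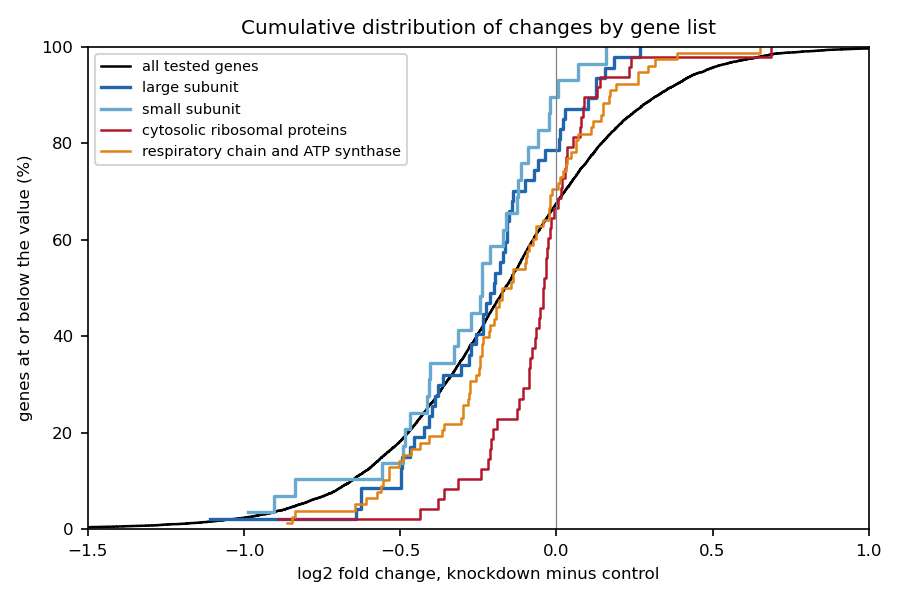
Cumulative share of genes (vertical axis, percent) at or below each log2 fold change (horizontal axis) for both mitoribosomal subunits, all tested genes, cytosolic ribosomal proteins and respiratory subunits. The curves of the large and the small subunit run close together with medians of -0.20 and -0.24, and the cytosolic curve is steeper around its median of -0.04.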

How the data were processed

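The authors deposited linear intensities, a MAS5 signal for each probe set per the submitters' processing notes, without stating version, scaling target or filters. Per the labels' protocols, labelled cRNA came from poly(A)+ RNA (200 ng) of the cytoplasmic fraction. Genes were named from probe sets with 1 symbol in GEO's platform annotation, updated by Entrez identifier. All 156 member probe sets matched.

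Values were taken as log2(signal + 16) without scaling, which shrinks the fold change of dim genes. The 22519 probe sets whose mean was at or above the median (a signal of about 16.4) were tested, which covered 11804 genes, each at its brightest probe set. The test was limma 3.58.1 under R 4.3.3, with lmFit and a trended eBayes, two-sided, on 17 (genes) or 13.6 (probe sets) total degrees of freedom, adjusted by Benjamini-Hochberg over all features. The number of arrays limits the precision. Simulated data were used to check the fit. The paired check gave a correlation of 0.0017 between groups for the replicate differences. Alternatives were other pseudocounts, scalings, filters, thresholds and summaries of probe sets, and leaving out arrays. Members and lists were chosen with earlier results of these data known. The rule for named genes took, per subunit, the 6 largest falls and the 4 largest rises among called genes, members with opposite calls, 8 genes picked for their role, and the 2 smallest p in each other list. Plots used matplotlib 3.10.9 (Python 3.11.15).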

Additional observations from a re-analysis of the deposited data

How the results depend on the processing

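With 2 arrays a group, every p-value leans on the variance limma pools over genes, and where an array was left out the lone array was assumed to vary like the other group. With quantile scaling members called lower and higher numbered 25 and 11 (15 large and 10 small lower), 21 probe sets were higher, and the medians were -0.028 (large) and -0.057 (small). Among all genes 22.6% were lower and 17.7% higher there. After centring on the tested probe sets 8 genes and 17 probe sets were higher, with medians of -0.069 and -0.11, and after centring on all probe sets 3 genes were higher. Under these 2 centrings 36.8% and 47.4% of the members were lower, against 24.2% and 32.4% of all genes. With spike-in scaling 72.4% of the members were lower, against 46.1% of all genes. There 0 genes and 0 probe sets were higher (limma, with 0 and 1 at an unadjusted p under 0.05), with medians of -0.34 and -0.38. Without the intensity trend 26 genes fell (15 large), 34.2% of the members against 27.5% of all genes. There 0 rose (1 at an unadjusted p under 0.05), and 1 probe set was higher. The brightest 25% gave 2 higher genes. Leaving out _x_at and _s_at probe sets, 2 genes were higher and Mrpl38 turned to 0.10, because its brightest probe set is one of them. As the mean of probe sets 3 genes were higher, the small subunit's median was -0.19, large minus small was -0.016 and Mrpl13 turned to 0.063. By that mean 42.1% of the members were lower, against 31.6% of all genes. At a threshold of 0.01 3 probe sets were higher, and 38.2% of the members were lower, against 26.7% of all genes. A fold of at least 1.5 left 7 genes lower (4 large, 3 small) and 0 higher, and 13 probe sets lower and 1 higher. The share lower was then 9.21% of the members, against 13.2% of all genes.

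Leaving out 1 array at a time gave 33 to 38 genes lower and 1 to 3 higher, 37 to 47 probe sets lower and 1 to 5 higher, 19 to 24 large and 14 to 15 small subunit genes lower, medians of -0.25 to -0.17 (large) and -0.255 to -0.19 (small), and a difference of -0.035 to 0.077. It was -0.03 without knockdown replicate 2 and -0.035 without control replicate 2, and higher genes numbered 3 without knockdown replicate 1. With the mean over genes in place of the median, an alternative chosen after seeing the data, large minus small was 0.064. The 6 higher probe sets became 1 without knockdown replicate 2. With the replicate block 38 genes fell and 1 rose, a share of 50% lower against 35.5% of all genes. The correlation of 0.0017 for the replicate differences showed no pairing by replicate number. It does not settle whether samples of the same number were handled together. Of the named members' values over all alternatives, 341 kept their direction and side of the threshold, 29 no longer passed, 5 newly passed and 2 reversed.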
